A study of Mus musculus with 6 samples.

Results

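The genes described here are 10 integrin subunits of leukocytes, among them Itgax, which encodes CD11c. They are listed by symbol, in a set chosen with earlier results of these data known: Itgax, Itgam, Itgal, Itgb2, Itgb1, Itga4, Itgav, Itgb5, Itga6 and Itga9. All 10 were found among the 13886 genes with expression values, and all 10 passed the filter of a mean of at least 1 TPM (a transcript level scaled for gene length and library size), which left 13777 genes to test. The libraries came from liver macrophages of Lyz2cre/+.Egr2fl/fl mice (3 libraries) and Egr2fl/fl mice (3 libraries), each library from a separate mouse. Both genotypes carried Egr2 with loxP sites on both alleles and both were fed CDA-HFD, a diet rich in fat and lacking choline that causes steatohepatitis. In Lyz2cre/+.Egr2fl/fl mice, Cre recombinase is expressed from the Lyz2 gene, which is active in monocytes, macrophages and granulocytes, so Egr2, a transcription factor, is removed from those cells. The Egr2fl/fl mice, littermates according to the study, lacked Cre. Effects of the recombinase, of the altered Lyz2 allele and of losing Egr2 therefore cannot be told apart. The methods name male mice for this diet, and the labels give neither sex nor age.

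Integrins are membrane receptors made of 1 α and 1 β chain, and they bind other cells or the extracellular matrix. The β2 chain, encoded by Itgb2, pairs in leukocytes with the α chains encoded by Itgal, Itgam, Itgax and Itgad to form receptors for ICAM proteins, complement fragment iC3b and fibrinogen. The β1 chain pairs with many α chains for fibronectin, laminins, collagens and VCAM-1, while αv chains pair with β1, β5 and others for vitronectin, osteopontin and latent TGF-β. CD11c is used with other proteins to define macrophages in fatty livers, and CD11b (Itgam) is a general marker of myeloid cells.

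The libraries held at least 6497770 to 8569062 reads in genes, as recovered from the steps of the deposited values. Egr2 stood at 9.08, 9.64 and 10.5 TPM in Lyz2cre/+.Egr2fl/fl macrophages, against 123, 120.2 and 126 TPM in Egr2fl/fl macrophages, in the direction that the genotype labels give. The summed TPM of 10 macrophage markers was 26331 to 26633 in Lyz2cre/+.Egr2fl/fl libraries and 26147 to 29537 in Egr2fl/fl libraries, the highest sum of any marker list used. Within that list 4 of 10 genes were higher (Adgre1, Mertk, Fcgr1 and C1qc) and 5 did not pass, while Lyz2, the gene that carries Cre, was lower, at 6502 ± 118 TPM in Lyz2cre/+.Egr2fl/fl libraries and 10719 ± 838 TPM in Egr2fl/fl libraries. Markers of endothelial cells and of Kupffer cells, the resident macrophages of the liver, also differed between the genotypes. For mice on this diet the study reports few resident Kupffer cells in either genotype. It describes Kupffer cell genes in a subset of monocyte-derived macrophages. The summed TPM of 16 endothelial markers was 518 to 592 in Lyz2cre/+.Egr2fl/fl libraries and 83.1 to 112 in Egr2fl/fl libraries, with 15 of the 16 higher and Vwf the exception. For 8 Kupffer cell markers it was 4954 to 6280 in Lyz2cre/+.Egr2fl/fl libraries and 1835 to 2363 in Egr2fl/fl libraries, with 7 of 8 higher. Timd4 narrowly missed the threshold (log2 fold change 1.88 ± 0.45, limma adjusted p = 0.0598). It measured 18.5, 47.6 and 22.3 TPM in Lyz2cre/+.Egr2fl/fl libraries, all above the 4.75, 12.9 and 4.53 TPM in Egr2fl/fl libraries. One library, Egr2fl/fl replicate 3, had the highest sum of 8 hepatocyte markers, at 523 TPM, against 83.6 to 216 in Lyz2cre/+.Egr2fl/fl libraries and 64.9 to 153 in the other Egr2fl/fl libraries.

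Of the 10 integrin subunits, 2 were lower in Lyz2cre/+.Egr2fl/fl macrophages (Itgax and Itgb2), 2 were higher (Itga9 and Itga6) and 6 did not pass the test. The test was limma on log2(TPM + 1), adjusted over all 13777 genes by the Benjamini-Hochberg method, with a threshold of 0.05. Of all genes tested, 6.24% passed, 4.38% as higher and 1.87% as lower. The genotypes did not overlap for 5 of the 10 subunits, against 25.2% of all genes. The median log2 fold change was 0.12 over the 10 subunits and 0.04 over all genes.

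**Figure D1:**
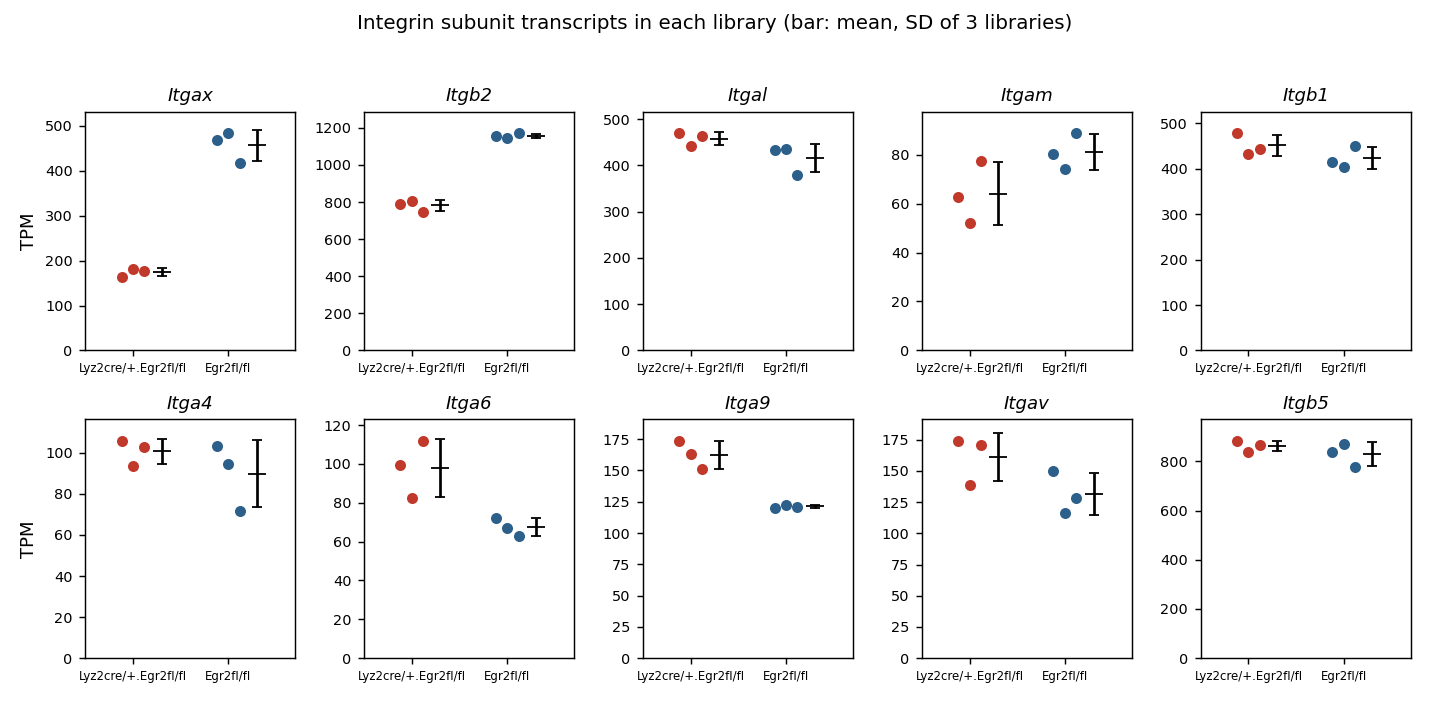
TPM of each of the 10 integrin subunits (vertical axes, from 0) in the 3 Lyz2cre/+.Egr2fl/fl libraries (red, left) and the 3 Egr2fl/fl libraries (blue, right); black bars give the mean and SD. The genotypes are apart for Itgax, Itgb2, Itgal, Itga6 and Itga9 and overlap for Itgam, Itgb1, Itga4, Itgav and Itgb5.

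Itgax encodes the α chain CD11c and lies on chromosome 7 at 128129547 to 128150657, on the plus strand (GRCm38). It measured 164, 181 and 177 TPM in Lyz2cre/+.Egr2fl/fl macrophages, against 469, 483 and 418 TPM in Egr2fl/fl macrophages. The highest Lyz2cre/+.Egr2fl/fl library stood far below the lowest Egr2fl/fl library. The mean was 174 ± 8.72 TPM in Lyz2cre/+.Egr2fl/fl macrophages and 457 ± 34.2 TPM in Egr2fl/fl macrophages (SD, n = 3 each), so Itgax was 2.62-fold lower, with a log2 fold change of -1.38 ± 0.07 (SE, 95% interval -1.55 to -1.22, limma adjusted p = 0.00029). By p-value Itgax ranked 7 of all 13777 genes, and among the 257 genes called lower its fall was number 30 in size. By mean level it ranked 1024 in Lyz2cre/+.Egr2fl/fl macrophages and 356 in Egr2fl/fl macrophages. The transcript thus remained well expressed in Lyz2cre/+.Egr2fl/fl macrophages, in which Egr2 was reduced but still measured. At least 24006 reads lay behind these 6 values, and no other annotated gene overlaps Itgax. These are bulk samples, in which fewer cells of a type and less RNA per cell cannot be told apart.

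CD11c is also a defining protein of dendritic cells, whose markers were low in these libraries. The summed TPM of the 5 dendritic cell markers analysed was 15.8 to 22.1 in Lyz2cre/+.Egr2fl/fl libraries and 12.6 to 22.1 in Egr2fl/fl libraries, 0 of 5 passed the test, and Xcr1 and Siglech of that list were not analysed here. The cytokine receptor gene Flt3 measured 1.13 to 3.45 TPM in Lyz2cre/+.Egr2fl/fl libraries and 0.19 to 3.22 TPM in Egr2fl/fl libraries. Flt3, Clec9a and Cd209a overlapped between the genotypes, and Zbtb46 and Ccr7 did not. Zbtb46 averaged 1.86 ± 0.31 TPM in Lyz2cre/+.Egr2fl/fl libraries and 0.65 ± 0.31 TPM in Egr2fl/fl libraries. Ccr7 went the other way, at 5.82 ± 0.71 TPM in Lyz2cre/+.Egr2fl/fl libraries and 7.97 ± 1.21 TPM in Egr2fl/fl libraries. The part of dendritic cells in the Itgax result was not tested.

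Itgax lies in a cluster with the other β2-partner α genes Itgam and Itgad, all on the plus strand of chromosome 7. Itgam (128062640 to 128118491) ends 11056 bases before Itgax begins, and Itgad (128154376 to 128223816) begins 3719 bases after Itgax ends. Itgam encodes CD11b, and CD11b on the cell surface was part of the gate by which the study sorted these macrophages, so cells with little CD11b were left out. It measured 62.6, 52.1 and 77.5 TPM in Lyz2cre/+.Egr2fl/fl macrophages, against 80.4, 74.2 and 88.6 TPM in Egr2fl/fl macrophages. Lyz2cre/+.Egr2fl/fl replicate 3 lay above Egr2fl/fl replicate 2, so the groups overlapped. Its log2 fold change of -0.35 ± 0.14 (SE, 95% interval -0.69 to -0.01) had a limma adjusted p of 0.239. On the log2(TPM + 1) scale Itgax exceeded Itgam by 1.38, 1.78 and 1.18 in Lyz2cre/+.Egr2fl/fl libraries and by 2.53, 2.69 and 2.22 in Egr2fl/fl libraries. The change of Itgax was thus 1.03 log2 units more negative than that of Itgam, with no overlap between the genotypes (exact 2-sided permutation test, p = 0.1, the smallest that 3 against 3 allows).

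Itgad, the α chain CD11d, was rare. It measured 1.43, 2.88 and 2.31 TPM in Lyz2cre/+.Egr2fl/fl macrophages, against 4.32, 2.59 and 1.5 TPM in Egr2fl/fl macrophages, and the groups overlapped widely (log2 fold change -0.21 ± 0.33, limma adjusted p = 0.804). Its span holds Cox6a2, a cytochrome oxidase subunit gene on the opposite strand. Cox6a2 averaged 2.40 ± 2.34 TPM in Lyz2cre/+.Egr2fl/fl libraries and 3.19 ± 1.05 TPM in Egr2fl/fl libraries (limma adjusted p = 0.652). On the other side of Itgam the next tested gene was Gm19366, a processed pseudogene seen in at least 5 reads in all (limma adjusted p = 0.184). Of the 5 tested genes from Gm19366 to Cox6a2, Itgax was thus the only one past the threshold.

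The sequences before the starts of Itgax and Itgam are shown because these neighbours, read in the same direction, gave the largest fall among the 10 subunits and a change that did not pass the test. They are the 250 bases before each RefSeq start, 5′ to 3′, plus strand of GRCm38.p6, at chr7:128129300-128129549 for Itgax and chr7:128062390-128062639 for Itgam. Capitals mark the only match to any of 3 motifs searched on both strands, in windows that ran from 250 bases before to 50 after the start.
Itgax: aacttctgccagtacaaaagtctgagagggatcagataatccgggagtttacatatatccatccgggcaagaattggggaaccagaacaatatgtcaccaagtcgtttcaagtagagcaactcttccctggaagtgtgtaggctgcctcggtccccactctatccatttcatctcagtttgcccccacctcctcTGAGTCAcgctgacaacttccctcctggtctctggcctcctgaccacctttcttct
Itgam: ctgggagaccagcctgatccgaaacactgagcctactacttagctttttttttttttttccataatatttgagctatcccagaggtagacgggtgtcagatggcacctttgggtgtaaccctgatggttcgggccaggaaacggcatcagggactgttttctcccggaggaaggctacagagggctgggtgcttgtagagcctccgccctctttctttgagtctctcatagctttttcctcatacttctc
The motifs were the EGR site (GCGNGGGCG), a PU.1 site (GAGGAAGT) and an AP-1 site (TGANTCA), PU.1 and AP-1 being transcription factors of macrophages. The match before Itgax is to the AP-1 letters, and its first base lies at position -56 from the start. Of 32851 RefSeq promoter windows of this length, 5.55% held the EGR letters, 3.2% the PU.1 letters and 7.81% the AP-1 letters. RefSeq windows were matched for 7 of the 10 subunits, with Itgal, Itgb2 and Itga6 missing. The window of Itga9 lies inside the gene as annotated by GENCODE, not before its first base there, and is left out of what follows. Of the other 6 windows, 0 held the EGR letters, that of Itgav held the PU.1 letters and that of Itgax the AP-1 letters, each once and with no overlap between motifs. The windows held 5 CpG dinucleotides for Itgax, 6 for Itgam, 10 for Itga4, 20 for Itgb5, 24 for Itgav and 27 for Itgb1, with a median of 7 over all windows, and of these genes Itgax alone passed the test. Such matches describe letters only, and whether any factor binds there was not measured.

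Itgal encodes the α chain CD11a (chromosome 7, 127296260 to 127335138, plus strand), which forms LFA-1 with β2 and binds ICAM-1. It measured 469, 442 and 463 TPM in Lyz2cre/+.Egr2fl/fl macrophages, against 433, 435 and 379.8 TPM in Egr2fl/fl macrophages. Every Lyz2cre/+.Egr2fl/fl library was above every Egr2fl/fl library, by a margin that was small for replicates 1 and 2. The log2 fold change of 0.14 ± 0.06 (95% interval -0.01 to 0.29) did not pass the test (limma adjusted p = 0.289). T and NK cells express Itgal strongly, and the summed TPM of the 4 T or NK cell markers analysed was 4.33 to 5.32 in Lyz2cre/+.Egr2fl/fl libraries and 6.78 to 10.4 in Egr2fl/fl libraries, with Klrb1c lower.

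Itgb2, on chromosome 10 at 77530252 to 77565708 (plus strand), encodes CD18, the β2 chain that all of these α chains need to reach the cell surface. It measured 792, 805 and 747 TPM in Lyz2cre/+.Egr2fl/fl macrophages, against 1155, 1146 and 1169.7 TPM in Egr2fl/fl macrophages. The 2 sets of values were tight and far apart. With a mean of 781 ± 30.6 TPM in Lyz2cre/+.Egr2fl/fl macrophages and 1157 ± 12 TPM in Egr2fl/fl macrophages (SD, n = 3 each), Itgb2 was 1.48-fold lower, at a log2 fold change of -0.57 ± 0.04 (SE, 95% interval -0.67 to -0.46, limma adjusted p = 0.000911). The fold was smaller than that of Itgax, but in level Itgb2 fell by 375 TPM, more than Itgax did. Neutrophils and monocytes also express Itgb2, although the gate (Ly6G-negative, Ly6C-low, F4/80-positive) was set to leave them out. The summed TPM of the 5 neutrophil markers analysed was 144 to 161 in Lyz2cre/+.Egr2fl/fl libraries and 165 to 182 in Egr2fl/fl libraries, with S100a8 and S100a9 lower. Most of that sum was Csf3r, at 132.9 TPM in Lyz2cre/+.Egr2fl/fl libraries and 151.8 TPM in Egr2fl/fl libraries (means, limma adjusted p = 0.136). S100a8 averaged 1.73 and 6.24 TPM and S100a9 0.449 and 3.19 TPM, in the same order, while Retnlg and Mmp8 overlapped. The summed TPM of 6 monocyte markers was 371 to 502 in Lyz2cre/+.Egr2fl/fl libraries and 433 to 533 in Egr2fl/fl libraries, with 0 of 6 past the test and Ccr2 the largest part. The part of these cells in the Itgb2 result was not tested.

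The makeup of the β2-partner α transcripts differed between the genotypes. The summed TPM of Itgal, Itgam, Itgax and Itgad was 697, 678 and 719.7 in Lyz2cre/+.Egr2fl/fl libraries, against 987, 995 and 888 in Egr2fl/fl libraries. Itgax made up 23.6%, 26.7% and 24.6% of that sum in Lyz2cre/+.Egr2fl/fl libraries, against 47.5%, 48.6% and 47.1% in Egr2fl/fl libraries. The shares were close within each genotype and 22.8 percentage points apart between the means (exact 2-sided permutation test, p = 0.1, the smallest possible here). Itgal took 65.6% ± 1.5 of the sum in Lyz2cre/+.Egr2fl/fl libraries and 43.5% ± 0.61 in Egr2fl/fl libraries. The share of Itgam was 9.14% ± 1.55 in Lyz2cre/+.Egr2fl/fl libraries and 8.53% ± 1.3 in Egr2fl/fl libraries, within the spread of each. Itgax over Itgal, as a ratio of TPM, was 0.381 ± 0.0298 in Lyz2cre/+.Egr2fl/fl libraries and 1.1 ± 0.0153 in Egr2fl/fl libraries. In Egr2fl/fl macrophages CD11c and CD11a transcripts were therefore at about equal level, and in Lyz2cre/+.Egr2fl/fl macrophages CD11a transcripts were the main ones.

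Without Itgax, the sum of Itgal, Itgam and Itgad was 524 ± 24.3 TPM in Lyz2cre/+.Egr2fl/fl libraries and 499.8 ± 26 TPM in Egr2fl/fl libraries, a difference within the spread. Itgb2 TPM over the summed TPM of its 4 α partners was 1.14, 1.19 and 1.04 in Lyz2cre/+.Egr2fl/fl libraries, against 1.17, 1.15 and 1.32 in Egr2fl/fl libraries. These ratios overlapped, with a difference of -0.09 between the means (exact 2-sided permutation test, p = 0.4). Itgb2 and its α partners were thus both lower in sum, at a ratio whose difference was not detectable with 3 libraries each.

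**Figure D2:**
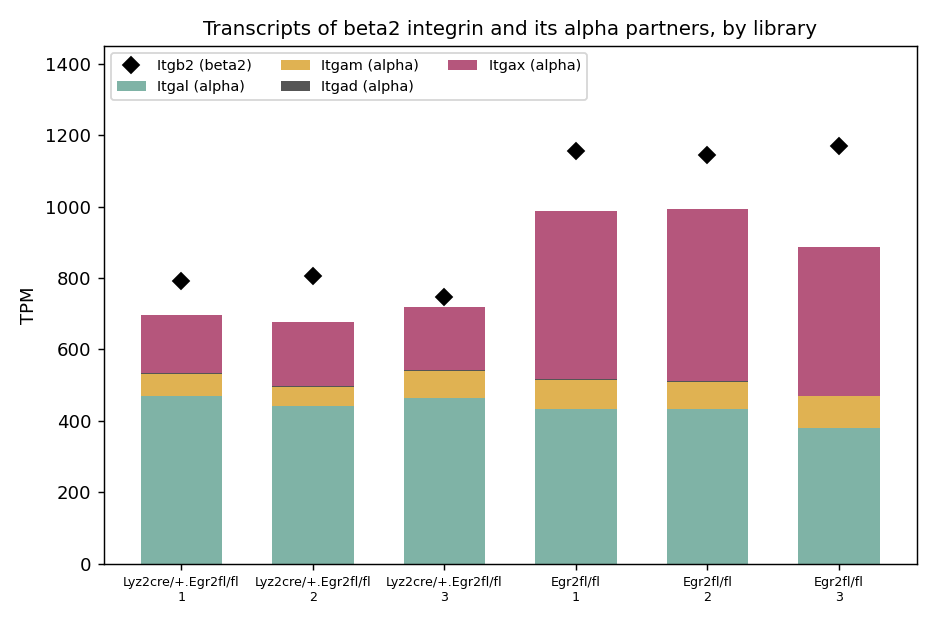
Stacked TPM of the 4 α genes that pair with β2 (bars) and TPM of Itgb2 (black diamonds) in each library, Lyz2cre/+.Egr2fl/fl on the left and Egr2fl/fl on the right. The Itgax part is 164 to 181 TPM in Lyz2cre/+.Egr2fl/fl libraries and 418 to 483 TPM in Egr2fl/fl libraries, while the Itgal part is 442 to 469 TPM in Lyz2cre/+.Egr2fl/fl libraries and 379.8 to 435 TPM in Egr2fl/fl libraries.

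Among the α chains that pair with β1, Itga9 and Itga6 were higher in Lyz2cre/+.Egr2fl/fl macrophages. Itga9, on chromosome 9 at 118606690 to 118901003 (plus strand), encodes a chain that with β1 binds tenascin-C, osteopontin and VCAM-1. It measured 173, 164 and 151 TPM in Lyz2cre/+.Egr2fl/fl macrophages, against 120.3, 123 and 121 TPM in Egr2fl/fl macrophages. All Lyz2cre/+.Egr2fl/fl libraries were above all Egr2fl/fl libraries, among which the values hardly varied. The mean was 163 ± 11.3 TPM in Lyz2cre/+.Egr2fl/fl macrophages and 121 ± 1.16 TPM in Egr2fl/fl macrophages (SD, n = 3 each), a log2 fold change of 0.42 ± 0.06 (SE, 95% interval 0.27 to 0.56, limma adjusted p = 0.0105). Within the Itga9 span and on the opposite strand lie 2 other tested genes, Gm10157 and Gm2415. Gm10157 averaged 17.9 ± 6.3 TPM in Lyz2cre/+.Egr2fl/fl libraries and 18.0 ± 3.77 TPM in Egr2fl/fl libraries.

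Itga6, on chromosome 2 at 71745616 to 71858416 (plus strand), encodes the α6 chain of laminin receptors. It measured 99.7, 82.3 and 112 TPM in Lyz2cre/+.Egr2fl/fl macrophages, against 72.3, 67.2 and 62.9 TPM in Egr2fl/fl macrophages. The genotypes did not overlap, but the lowest Lyz2cre/+.Egr2fl/fl library was not far above the highest Egr2fl/fl library. The mean was 97.9 ± 14.8 TPM in Lyz2cre/+.Egr2fl/fl macrophages and 67.5 ± 4.72 TPM in Egr2fl/fl macrophages (SD, n = 3 each), a log2 fold change of 0.52 ± 0.12 (SE, 95% interval 0.25 to 0.80) that passed the threshold narrowly (limma adjusted p = 0.0455). That call needed most of the libraries. The limma adjusted p was 0.153 without Lyz2cre/+.Egr2fl/fl replicate 1, 0.12 without replicate 3 of that genotype, and 0.0899, 0.126 and 0.144 without Egr2fl/fl replicates 1, 2 and 3 in turn, and only without Lyz2cre/+.Egr2fl/fl replicate 2 did it stay below the threshold, at 0.021.

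Endothelial cells express Itga6 and Itga9 too, and the endothelial marker sum was also higher in every Lyz2cre/+.Egr2fl/fl library. That sum was 518, 592 and 559 TPM in Lyz2cre/+.Egr2fl/fl replicates 1, 2 and 3, and 112, 83.1 and 85.3 TPM in Egr2fl/fl replicates 1, 2 and 3. The Kupffer cell marker sum was higher in all Lyz2cre/+.Egr2fl/fl libraries as well. The part of endothelial or Kupffer cell transcripts in the Itga6 and Itga9 results was not tested.

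**Figure D3:**
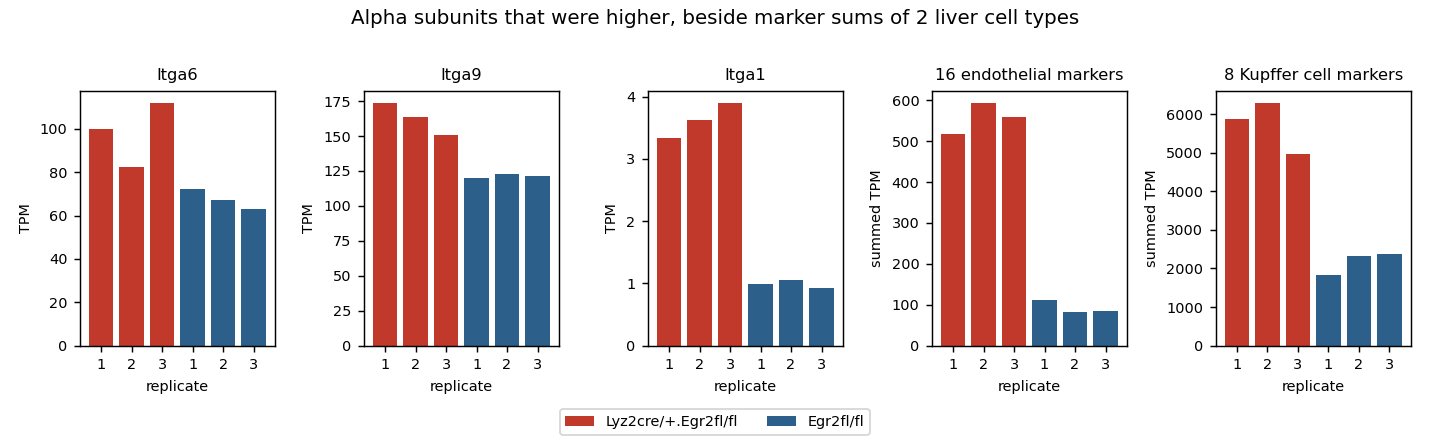
TPM of Itga6, Itga9 and Itga1 and summed TPM of 16 endothelial and 8 Kupffer cell markers in each library (bars, axes from 0), with Lyz2cre/+.Egr2fl/fl in red on the left and Egr2fl/fl in blue on the right of each panel. All 5 quantities are higher in every Lyz2cre/+.Egr2fl/fl library, for example 82.3 to 112 TPM of Itga6 in Lyz2cre/+.Egr2fl/fl libraries against 62.9 to 72.3 TPM in Egr2fl/fl libraries.

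The remaining subunits did not pass the test. Itgb1, the β1 chain (chromosome 8, 128685654 to 128733200, plus strand), measured 478, 432 and 444 TPM in Lyz2cre/+.Egr2fl/fl macrophages, against 415, 404 and 449.7 TPM in Egr2fl/fl macrophages. The highest Egr2fl/fl library was above 2 of the 3 Lyz2cre/+.Egr2fl/fl libraries, and the log2 fold change was 0.09 ± 0.06 (SE, 95% interval -0.05 to 0.24, limma adjusted p = 0.478). Itga4, the α4 chain of the VCAM-1 receptor VLA-4 (chromosome 2, 79255426 to 79333123, plus strand), measured 106, 93.8 and 103 TPM in Lyz2cre/+.Egr2fl/fl macrophages, against 103, 94.5 and 71.6 TPM in Egr2fl/fl macrophages. Apart from the low Egr2fl/fl replicate 3, these values covered the same range, and the log2 fold change was 0.18 ± 0.13 (95% interval -0.14 to 0.49, limma adjusted p = 0.541).

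Itgav and Itgb5 encode the chains of αvβ5, a receptor for vitronectin that takes part in the uptake of apoptotic cells. Itgav (chromosome 2, 83724397 to 83806916, plus strand) measured 174, 139 and 171 TPM in Lyz2cre/+.Egr2fl/fl macrophages, against 149.7, 116 and 128 TPM in Egr2fl/fl macrophages. Replicate 2 was the lowest library in both genotypes and the ranges overlapped, with a log2 fold change of 0.29 ± 0.12 (95% interval 0.01 to 0.57, limma adjusted p = 0.233). Itgb5 (chromosome 16, 33829665 to 33949338, plus strand) measured 882, 839.8 and 865 TPM in Lyz2cre/+.Egr2fl/fl macrophages, against 839, 872 and 777 TPM in Egr2fl/fl macrophages. It was abundant and nearly level across the 6 libraries, and its log2 fold change of 0.06 ± 0.05 had a 95% interval of -0.07 to 0.19 (limma adjusted p = 0.638). The interval of Itgb5 lies wholly above that of Itgb2.

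The order of the subunits by mean TPM differed between the genotypes in several places, among them that of Itgax. In Lyz2cre/+.Egr2fl/fl macrophages the order was Itgb5, Itgb2, Itgal, Itgb1, Itgax, Itga9, Itgav, Itga4, Itga6 and Itgam, where Itgal and Itgb1, Itgax, Itga9 and Itgav, and Itga4 and Itga6 overlapped with their neighbours. In Egr2fl/fl macrophages it was Itgb2, Itgb5, Itgax, Itgb1, Itgal, Itgav, Itga9, Itga4, Itgam and Itga6, where Itgax, Itgb1 and Itgal, Itgav and Itga9, and Itga4 and Itgam overlapped. CD11c transcripts were thus level with those of β1 and CD11a in Egr2fl/fl macrophages and level with those of α9 and αv in Lyz2cre/+.Egr2fl/fl macrophages. Itgb2 was the most abundant subunit in Egr2fl/fl macrophages, and Itgb5 in Lyz2cre/+.Egr2fl/fl macrophages. Itgam stood above Itga6 in Egr2fl/fl macrophages and below it in Lyz2cre/+.Egr2fl/fl macrophages, with ranges apart in both.

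Of 17 further integrin subunits listed, 5 were measured (Itga1, Itga5, Itga8, Itgad and Itgb7), and the other 12, among them Itgae, Itgb3 and Itgb8, were not analysed here. Of the 5, Itga1 was higher and 0 were lower, where 4.38% of all genes tested were higher and 1.87% lower. Itga1, the α chain of a collagen receptor, measured 3.33, 3.62 and 3.89 TPM in Lyz2cre/+.Egr2fl/fl macrophages, against 0.99, 1.05 and 0.93 TPM in Egr2fl/fl macrophages. The groups were far apart at a low level (log2 fold change 1.21 ± 0.20, limma adjusted p = 0.0146, at least 429 reads in all), and the adjusted p was 0.0583 without Lyz2cre/+.Egr2fl/fl replicate 1 and 0.059 without replicate 3. Pelo, a gene on the same strand within the Itga1 span, averaged 8.02 ± 0.82 TPM in Lyz2cre/+.Egr2fl/fl libraries and 6.1 ± 0.94 TPM in Egr2fl/fl libraries (limma adjusted p = 0.265), and reads in shared stretches could count for either. Itga8, which pairs with β1 to bind nephronectin, measured 5.91, 3.48 and 4.82 TPM in Lyz2cre/+.Egr2fl/fl macrophages, against 2.38, 1.71 and 2.10 TPM in Egr2fl/fl macrophages. These did not overlap but missed the threshold (log2 fold change 0.89 ± 0.22, limma adjusted p = 0.0686). Itga5, the fibronectin receptor α chain, averaged 129 ± 5.9 TPM in Lyz2cre/+.Egr2fl/fl libraries and 140.5 ± 9.11 TPM in Egr2fl/fl libraries (limma adjusted p = 0.375), and Itgb7, the partner of α4 in gut homing, averaged 12.6 ± 2.44 TPM in Lyz2cre/+.Egr2fl/fl libraries and 13.9 ± 5.29 TPM in Egr2fl/fl libraries (limma adjusted p = 0.904). Both overlapped between the genotypes.

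**Figure D4:**
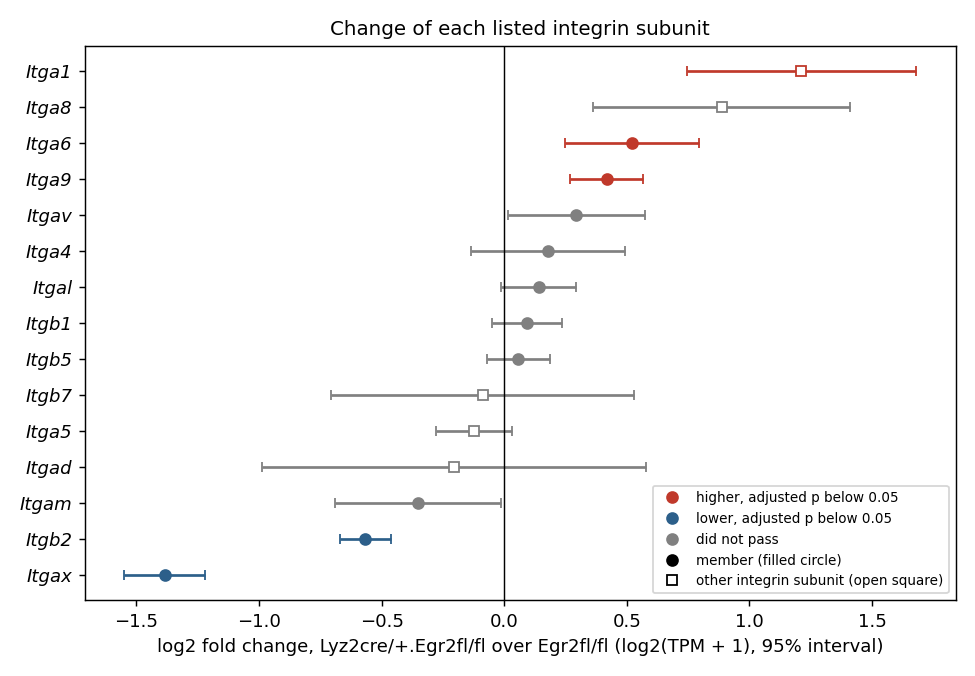
Log2 fold change of each integrin subunit, Lyz2cre/+.Egr2fl/fl over Egr2fl/fl, on the log2(TPM + 1) scale with its 95% interval; circles are the 10 leukocyte subunits, open squares 5 further subunits, and colours give the call (red higher, blue lower, grey not passed). Itgax (-1.38) and Itgb2 (-0.57) stand on the left with narrow intervals, and Itga9 (0.42), Itga6 (0.52) and Itga1 (1.21) on the right.

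The summed TPM of the α chains that can pair with β1 (Itga1, Itga4, Itga5, Itga6, Itga8, Itga9 and Itgav) was 687, 611 and 680.3 in Lyz2cre/+.Egr2fl/fl libraries, against 587, 536 and 538 in Egr2fl/fl libraries. The genotypes did not overlap, and the means differed by 106 TPM. Over all 10 leukocyte subunits the summed TPM was 3314 ± 84.9 in Lyz2cre/+.Egr2fl/fl libraries and 3773 ± 92.7 in Egr2fl/fl libraries. Every Lyz2cre/+.Egr2fl/fl library was below every Egr2fl/fl library in this total.

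Of 32 integrin ligand genes listed, 21 were tested, of which 3 were higher and 2 lower, while 16 missed the threshold. Over all genes tested, 4.38% were higher and 1.87% lower. The list had a median log2 fold change of -0.01, against 0.04 over all genes. Vcam1, the partner of α4β1 and α9β1, measured 179, 280.3 and 223 TPM in Lyz2cre/+.Egr2fl/fl macrophages, against 110.5, 129.9 and 125 TPM in Egr2fl/fl macrophages (log2 fold change 0.87 ± 0.15, limma adjusted p = 0.0201). Every Lyz2cre/+.Egr2fl/fl library was above every Egr2fl/fl library. The laminin chains Lama4 and Lamb2, which α6 integrins bind as parts of laminin trimers, averaged 3.66 ± 0.58 and 3.09 ± 0.31 TPM in Lyz2cre/+.Egr2fl/fl macrophages, against 0.43 ± 0.08 and 0.80 ± 0.31 TPM in Egr2fl/fl macrophages (limma adjusted p = 0.00728 and 0.0321). Endothelial cells make all 3 of these. The endothelial and the Kupffer cell marker sums were both higher in every Lyz2cre/+.Egr2fl/fl library, as given above, and the part of either was not tested. Spp1, which encodes osteopontin, a ligand of αv and α9 integrins, measured 463, 582 and 592 TPM in Lyz2cre/+.Egr2fl/fl macrophages, against 811, 781 and 1021 TPM in Egr2fl/fl macrophages (log2 fold change -0.67 ± 0.13, limma adjusted p = 0.0279). Fn1, which encodes fibronectin and was singled out after its values were seen, measured 128, 75.8 and 47.4 TPM in Lyz2cre/+.Egr2fl/fl macrophages, against 266, 221 and 196 TPM in Egr2fl/fl macrophages (log2 fold change -1.54 ± 0.32, limma adjusted p = 0.0381). Neither gene overlapped between the genotypes. Icam1, which encodes the ligand ICAM-1 of β2 integrins and was also singled out afterwards, averaged 182 ± 5.0 TPM in Lyz2cre/+.Egr2fl/fl libraries and 179.6 ± 28.4 TPM in Egr2fl/fl libraries and overlapped. These counts rested on most libraries. The higher ligands numbered 1 without Lyz2cre/+.Egr2fl/fl replicate 3 or without any single Egr2fl/fl library and 2 without either of the others, always with Lama4. The lower ligands numbered 1 without Lyz2cre/+.Egr2fl/fl replicate 1 (Fn1), without Egr2fl/fl replicate 2 (Spp1) and without Egr2fl/fl replicate 1, where it was the complement gene C3 in place of both, and 0 without any of the others.

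Of 45 genes of integrin activation and signalling listed, 43 were tested, of which 6 were higher and 2 lower, while 35 missed the threshold. The shares over all genes tested were 4.38% higher and 1.87% lower. The list had a median log2 fold change of 0.09, against 0.04 over all genes. Actn1, an α-actinin that links integrin tails to actin, measured 199, 207 and 183 TPM in Lyz2cre/+.Egr2fl/fl macrophages, against 115, 119 and 104 TPM in Egr2fl/fl macrophages. The values of each genotype lay close together (log2 fold change 0.79 ± 0.07, limma adjusted p = 0.00164). Rasgrp2, an activator of the GTPase Rap1 that switches integrins to their binding state in platelets and leukocytes, averaged 33.1 ± 4.02 TPM in Lyz2cre/+.Egr2fl/fl macrophages and 16.5 ± 1.69 TPM in Egr2fl/fl macrophages (log2 fold change 0.96 ± 0.12, limma adjusted p = 0.00539). Fermt2, the kindlin of non-blood cells, and Bcar1, an adaptor of focal adhesions, averaged 6.61 ± 1.1 and 4.8 ± 1.18 TPM in Lyz2cre/+.Egr2fl/fl macrophages, against 1.63 ± 0.2 and 0.90 ± 0.17 TPM in Egr2fl/fl macrophages (limma adjusted p = 0.00514 and 0.009). Both are low. The endothelial marker sum given above was also higher in every Lyz2cre/+.Egr2fl/fl library, a part that was not tested. The other higher genes were the kinases Lyn and Ptk2, and the lower ones were Parvg, a parvin of blood cells, and the kinase Fgr, all 4 named after their values were seen. Of the 6 higher genes, Actn1, Rasgrp2, Fermt2 and Bcar1 were called without any 1 library, whichever it was, Lyn only without replicate 2 of either genotype, and Ptk2 in none of these 6 fits. Lyn was also not called with median-of-ratios scaling or without the mean-variance trend. With a replicate block, neither Lyn nor Ptk2 was called. The 2 lower calls rested on single libraries: 1 was left without Lyz2cre/+.Egr2fl/fl replicate 1 or Egr2fl/fl replicate 2, and 0 without any of the others.

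Talin and the kindlin of blood cells, which bind β2 tails in leukocytes, did not pass the test. Fermt3, the kindlin of blood cells, averaged 459 ± 26.5 TPM in Lyz2cre/+.Egr2fl/fl macrophages and 428 ± 20.9 TPM in Egr2fl/fl macrophages, with a log2 fold change of 0.10 ± 0.06 (95% interval -0.04 to 0.24, limma adjusted p = 0.449). Tln1, which encodes talin, averaged 427 ± 13.5 TPM in Lyz2cre/+.Egr2fl/fl macrophages and 373 ± 24.3 TPM in Egr2fl/fl macrophages, with a log2 fold change of 0.20 ± 0.06 (95% interval 0.06 to 0.34, limma adjusted p = 0.121). For Tln1 all Lyz2cre/+.Egr2fl/fl libraries were above all Egr2fl/fl libraries, and for Fermt3 the genotypes overlapped. Both genes were singled out after their values were seen. Their intervals lie above that of Itgb2, whose log2 fold change was -0.57.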

How the data were processed

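The labels give a directional kit for total RNA of sorted liver macrophages, a kit that the study's methods name only for another sort. The gate was CD11b+ Ly6G- Ly6C-low F4/80+. The authors trimmed reads with Trimmomatic 0.39.0, aligned them to GRCm38 (mm10) with HISAT2 2.2.1, removed PCR duplicates, counted with featureCounts 2.0.1 and deposited TPM values. Whether counting used strand is not given in the sources used here. Because TPM is relative, an increase of some genes lowers the values of the rest. For all 13886 genes the values were whole multiples of 1 read (tolerance 0.001 of a read), but any common divisor of a gene's 6 read numbers is lost, so read totals are lower bounds.

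Groups follow the genotype in the sample titles, 3 separate mice each. The 13777 genes averaging at least 1 TPM entered a limma fit on log2(TPM + 1), using limma 3.58.1 (R 4.3.3, eBayes with a mean-variance trend, no covariates, 2-sided), Benjamini-Hochberg adjusted over all of them at a threshold of 0.05. The scale understates changes of low genes. For TPM, ± gives the SD over 3 libraries, for log2 differences the SE, and intervals are 95% intervals of the model. Shares and ratios were compared by exact permutation over the libraries. Steps were tested on simulated data.

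The members, gene lists and tests were chosen with earlier results of these data known. Named genes were the 10 subunits, Egr2, other integrin subunits measured, up to 4 genes with the smallest p from the ligand and the signalling list, and the 2 tested genes on either side of Itgax; additions are named as such. Coordinates are from GENCODE vM21 and promoters from RefSeq (GRCm38.p6). Alternatives were pseudocounts of 0.1 and 5, no filter and one of 5 TPM, median-of-ratios scaling, no trend, a replicate block, voom on the recovered reads, leaving out Itgad, and leaving out each library.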

Additional observations from a re-analysis of the deposited data

How the results depend on the processing

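Itgax, Itgb2, Itga9 and Egr2 kept their direction and call under all 14 alternative fits, and in each of these fits Itgax and Itgb2 were the 2 lower subunits. The number of higher subunits was 2, and 1 (Itga9) without trend and with a replicate block, and 1 to 2 when a library was left out. Of the further subunits 1 was higher, 0 with the filter of 5 TPM, which drops Itga1, or a replicate block, 2 with voom on the recovered reads (Itga1 and Itga8), and 0 to 1 when a library was left out. The 3 higher ligands numbered 1 with the filter of 5 TPM, which drops Lama4 and Lamb2, and 1 to 2 when a library was left out. The 2 lower ligands numbered 0 without trend and 0 to 1 when a library was left out. The 6 higher signalling genes numbered 3 with the filter of 5 TPM, which drops Fermt2, Bcar1 and Ptk2. They numbered 5 with median-of-ratios scaling or without trend, 4 with a replicate block, 7 with voom, and 4 to 5 when a library was left out. The 2 lower ones numbered 0 without trend, 0 with a replicate block and 0 to 1 when a library was left out. Other causes were not tested. Neither Itgad nor Itgb7 was called, and their log2 fold changes ran from -0.47 to 0.071 and from -0.33 to 0.18 when a library was left out, above 0 without Egr2fl/fl replicate 1 and, for Itgb7, without Lyz2cre/+.Egr2fl/fl replicate 1 (0.03).

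Over all genes, 603 were higher and 257 lower, 506 and 299 with median-of-ratios scaling, 776 and 382 with voom, 468 and 160 without trend, 301 and 130 with a replicate block, and 300 to 422 and 134 to 195 when a library was left out. The replicate numbers are not stated to pair the mice. Deviations of same-numbered libraries correlated at -0.03, 0.07 and -0.01, which shows no pairing but cannot exclude one with so few libraries. With the replicate block, Itgax had a log2 fold change of -1.38 and Itga6 an adjusted p of 0.0942. With 3 libraries per genotype, small changes such as that of Itgal were not detectable.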
